A study of Mus musculus with 2 samples.

Results

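The expression of 9 genes of the Notch pathway was described in the epithelium of the mouse tongue: the receptors Notch1, Notch2 and Notch3, the ligands Jag1, Jag2 and Dll1, the glycosyltransferase Lfng and the target genes Hes1 and Hey1. They were taken by symbol from the gene tables of both libraries and make up 9 of 32285 genes. The data were single-cell RNA sequencing counts from male B57BL/6 mice, as the strain is spelled in the labels, aged 8 to 12 weeks. Tongue epithelium was taken at Zeitgeber time (ZT) 0, lights on by the usual convention, or at ZT12, lights off. Both preparations were minced, digested with TrypLE, a trypsin-like enzyme, and sorted for living cells that exclude the dye 7-AAD. There was 1 library per time. The labels do not say how many mice were pooled for a library, and they name no transgene or other treatment. With 1 library each, time and library cannot be told apart and no test between the times was possible.

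Notch receptors are activated by Jagged or Delta-like ligands on a neighbouring cell. Ligand binding exposes the receptor to cleavage by ADAM proteases and then by gamma-secretase, and the freed intracellular part joins the DNA-binding protein RBPJ and a Mastermind coactivator at target genes such as those of the Hes and Hey families of transcriptional repressors. Fringe enzymes such as Lfng add sugars to the receptor and change how it answers to each kind of ligand, and in stratified epithelia the pathway is best known for its part in the passage of basal cells into the differentiating layers.

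By the GENCODE M21 annotation on mm10 (GRCm38), Notch1 lies at chr2:26457903-26516663, Jag1 at chr2:137081456-137116644, Notch2 at chr3:98013527-98150361, Hey1 at chr3:8663359-8667256, Lfng at chr5:140607320-140615545, Jag2 at chr12:112907819-112929776, Hes1 at chr16:30064384-30067796, Dll1 at chr17:15367354-15376872 and Notch3 at chr17:32120820-32166852. Notch2, Lfng and Hes1 are on the plus strand and the other 6 on the minus strand. RefSeq promoters (GRCm38.p6), the 250 bases before a gene's start and 50 after it, were at hand for 7 of the 9 genes, with 2 for Dll1. Hes1 and Hey1 were not among them. The 250 bases upstream of Jag2, Dll1, Lfng and Notch3 are shown, because the levels of the first 3 went together across clusters and those of Notch3 went the other way. Each is written 5′ to 3′ on the gene's strand, and capitals mark matches to GTGGGAA, the RBPJ motif, or to CACGTG, the E-box, on either strand. They lie at chr5:140607091-140607340 (Lfng, plus strand), chr12:112929496-112929745 (Jag2, minus), chr17:15375824-15376073 and chr17:15376933-15377182 (Dll1, minus) and chr17:32166891-32167140 (Notch3, minus).
Lfng: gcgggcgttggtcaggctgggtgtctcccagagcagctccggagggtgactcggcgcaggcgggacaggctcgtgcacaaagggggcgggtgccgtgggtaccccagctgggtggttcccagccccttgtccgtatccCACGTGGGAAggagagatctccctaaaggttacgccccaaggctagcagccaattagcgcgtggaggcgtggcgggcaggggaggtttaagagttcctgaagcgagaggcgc
Jag2: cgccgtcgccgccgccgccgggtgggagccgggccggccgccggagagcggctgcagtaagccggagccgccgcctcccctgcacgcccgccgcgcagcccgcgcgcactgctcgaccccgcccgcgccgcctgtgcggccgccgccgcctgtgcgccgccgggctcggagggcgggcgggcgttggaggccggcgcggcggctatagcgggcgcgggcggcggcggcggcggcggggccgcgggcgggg
Dll1, first start: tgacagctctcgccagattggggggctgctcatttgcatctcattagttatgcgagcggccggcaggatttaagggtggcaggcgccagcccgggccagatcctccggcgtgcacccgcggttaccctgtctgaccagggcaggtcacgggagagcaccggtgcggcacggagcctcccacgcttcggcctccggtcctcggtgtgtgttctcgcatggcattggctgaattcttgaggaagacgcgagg
Dll1, second start: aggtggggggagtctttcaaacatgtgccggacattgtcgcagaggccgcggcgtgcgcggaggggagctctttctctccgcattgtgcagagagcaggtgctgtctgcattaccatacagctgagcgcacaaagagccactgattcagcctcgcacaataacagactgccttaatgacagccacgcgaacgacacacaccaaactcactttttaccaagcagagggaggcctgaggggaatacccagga
Notch3: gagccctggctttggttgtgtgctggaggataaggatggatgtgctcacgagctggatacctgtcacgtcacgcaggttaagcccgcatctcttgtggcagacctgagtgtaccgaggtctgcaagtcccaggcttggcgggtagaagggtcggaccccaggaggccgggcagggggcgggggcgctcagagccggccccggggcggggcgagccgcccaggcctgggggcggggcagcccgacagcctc

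Of the 8 promoters of these genes, that of Lfng held both motifs, and they overlapped: the E-box began at -112 and the RBPJ motif at -109 from the start site. Neither motif was found in the other 7 windows of 300 bases. Among 32851 promoters of that length, 6.38% held GTGGGAA and 7.15% held CACGTG. The N-box CACNAG, which Hes proteins can bind, was present in 42.5% of all promoters. It occurred 3 times in the Notch1 window, 2 times in that of Notch3 and 1 time each in those of Notch2, Lfng and the second Dll1 start, and was not found in those of Jag1, Jag2 or the first Dll1 start. These are matches of letters and not mapped binding sites.

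After filtering, 1593 cells with 49254384 UMIs (unique molecular identifiers, counts of captured transcripts) remained for ZT0 and 2622 cells with 67122688 UMIs for ZT12, and the libraries shared 2 barcodes. The cells formed 20 clusters, numbered 0 to 19 and named from marker genes, without the 9 genes among those used for clustering. The basal-like class held 478 (ZT0) and 786 (ZT12) cells, the proliferating-like class 197 and 81, the differentiated-like class 671 and 1314 and the filiform-like class, after the hair-like papillae of the tongue, 118 and 194. Krt5 stood at 5409 CPM (UMIs of the gene per 1000000 UMIs) in basal-like and 1441 CPM in differentiated-like cells, Krt13 at 3900 and 35030 CPM, Mki67 at 672 CPM in proliferating-like and 21.8 CPM in basal-like cells, and Krt36 at 6963 CPM in filiform-like and 11.4 CPM in basal-like cells. Different clusters supplied the classes in each library. Cluster 7 gave 220 (ZT0) and 7 (ZT12) basal-like cells, and cluster 2 gave 12 and 367. Cluster 8 gave 186 and 32 proliferating-like cells, and cluster 17 gave 11 and 49. Among differentiated-like cells cluster 12 gave 161 and 1, and cluster 10 gave 14 and 164. Of other cell types, endothelial markers summed to at most 0.823 CPM in any of the 4 classes, with at least 4 of 5 markers at 0. The fibroblast list reached 1216 CPM in proliferating-like cells at ZT0, nearly all of it Dcn, with Col1a2 and Col3a1 at 0 there. Free RNA and doublets were in effect not removed.

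Notch1, the receptor best known in skin differentiation, was present in all 4 classes, at about the same level in basal-like and differentiated-like cells. It stood at 168 (ZT0) and 207 CPM (ZT12) in basal-like cells, 168 and 198 CPM in differentiated-like cells, 159 and 201 CPM in filiform-like cells, and 115 and 137 CPM in proliferating-like cells. The basal-like level was 1.46-fold (95% counting interval 1.34 to 1.59) that of proliferating-like cells at ZT0 and 1.51-fold (1.33 to 1.71) at ZT12. Counting intervals are Poisson or conditional binomial, cover counting error only and say nothing of variation between mice. Over the 18 clusters of at least 50 cells, both libraries together, Notch1 ranged from 101 CPM in cluster 4, the differentiated-like cluster led by the cornified-layer genes Crct1, Sprr3 and Lor, to 298 CPM in the unnamed cluster 14. The differentiated-like class alone spanned most of this range, up to 265 CPM in cluster 0, so its mean joins clusters of different Notch1 level.

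Notch3 had the steepest gradient among the receptors. Its level was 5.88 (ZT0) and 7.13 CPM (ZT12) in basal-like cells, 17.4 and 13.6 CPM in proliferating-like cells, and 69.9 and 72.6 CPM in differentiated-like cells. Filiform-like cells were near the last of these, at 51.4 and 54.2 CPM, with filiform-like cluster 9 at 71.4 and 65.5 CPM. The differentiated-like level was 11.9-fold (9.25 to 15.5) the basal-like one at ZT0 and 10.2-fold (8.38 to 12.5) at ZT12, so that both libraries gave the same order. After every cell was thinned to 10000 UMIs, a Notch3 UMI was found in 5.18% of 463 (ZT0) and 5.08% of 748 (ZT12) basal-like cells, against 48.6% of 619 and 53.1% of 1243 differentiated-like cells. Without thinning, the shares were 10.0% and 9.41% against 81.4% and 80.1%.

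Notch2 was intermediate. Basal-like cells held 28.3 (ZT0) and 17.8 CPM (ZT12), differentiated-like cells 48.2 and 39.7 CPM and filiform-like cells 68.6 and 65.9 CPM. The filiform-like level was 2.42-fold (2.01 to 2.91) the basal-like one at ZT0 and 3.70-fold (3.10 to 4.42) at ZT12. By cluster, the highest value was 85.1 CPM in filiform-like cluster 9.

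Jag1, a ligand, was present throughout: 71.3 (ZT0) and 79.7 CPM (ZT12) in basal-like cells, 51.5 and 70.7 CPM in proliferating-like cells, 87.1 and 81.4 CPM in differentiated-like cells, and 131 and 115 CPM in filiform-like cells. The class means hid a difference within basal-like cells. Cluster 5, led by Sostdc1, Trabd2b and Npnt, stood at 143 CPM (134 to 153), while clusters 2 and 7 stood at 43.8 and 46.9 CPM. Differentiated-like cluster 11, led by the keratins Krt42, Krt75 and Krt17, stood at 145 CPM (131 to 159).

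**Figure D1:**
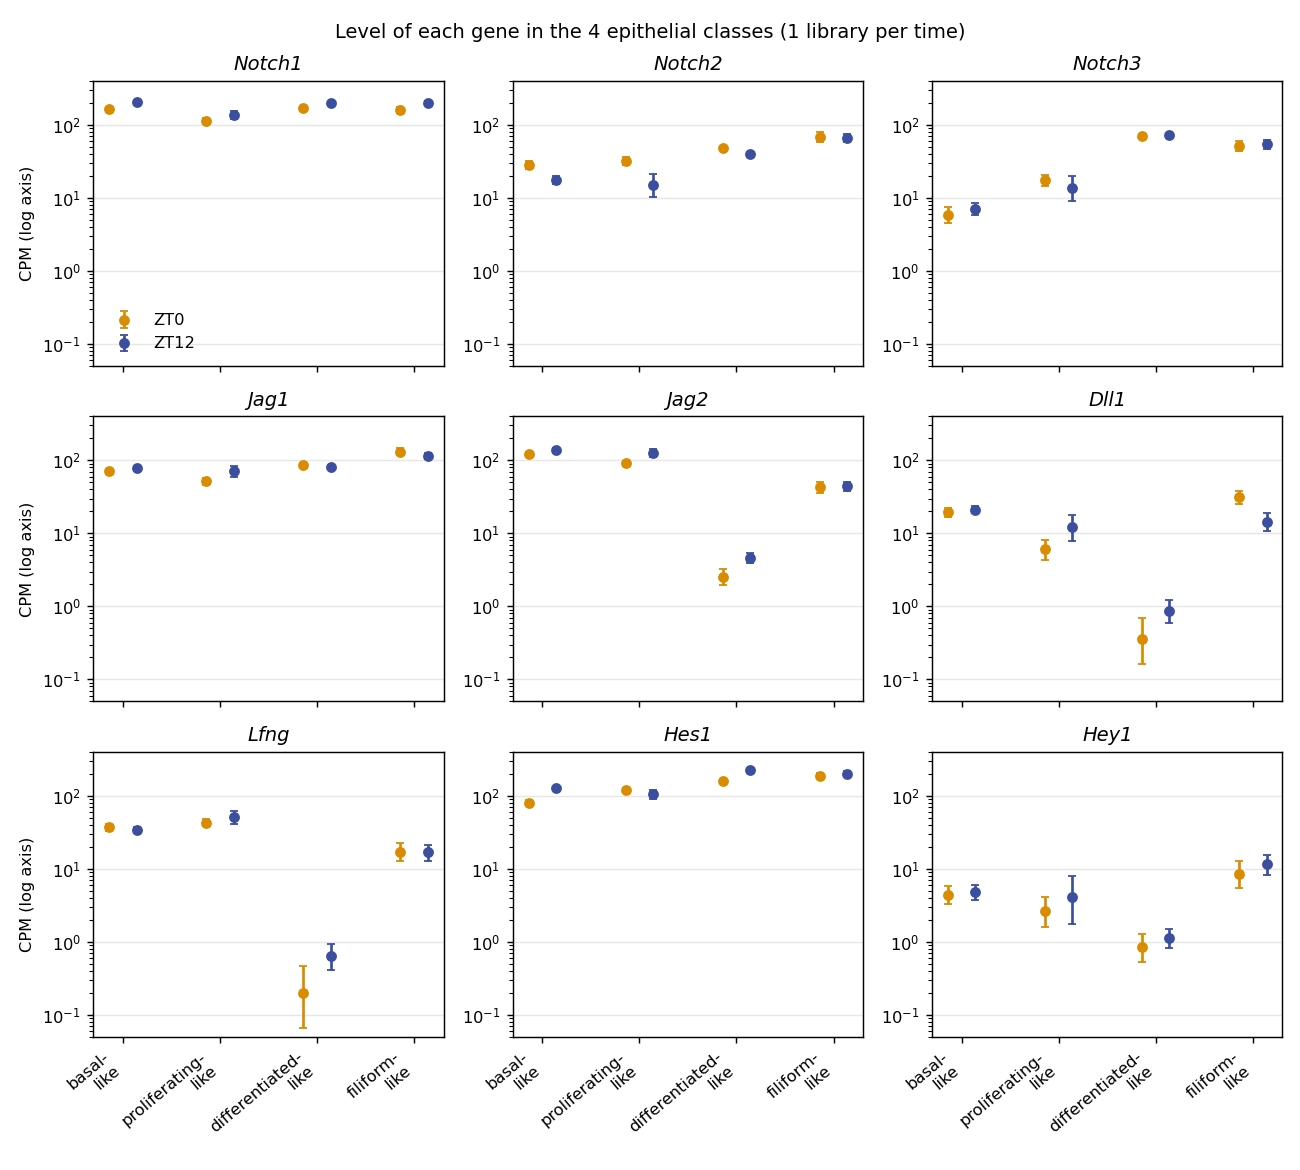
CPM on a log axis for each of the 9 genes in the basal-like, proliferating-like, differentiated-like and filiform-like classes, at ZT0 (orange) and ZT12 (blue), with 95% counting intervals and 1 library per time. Jag2, Dll1 and Lfng drop by more than 10-fold between basal-like and differentiated-like cells in both libraries, and Notch3 does the opposite.

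Jag2, Dll1 and Lfng were ordered against Notch3. Jag2, a ligand, stood at 120 (ZT0) and 140 CPM (ZT12) in basal-like cells and 2.56 and 4.62 CPM in differentiated-like cells, a ratio of 46.9 (36.5 to 61.3) at ZT0 and 30.3 (26.1 to 35.5) at ZT12. Dll1, a Delta-like ligand, stood at 19.4 and 21.2 CPM in basal-like cells against 0.361 and 0.863 CPM, a ratio of 53.8 (27.8 to 119) and 24.5 (17.2 to 36.1). Lfng stood at 36.7 and 34.0 CPM against 0.20 and 0.635 CPM, a ratio of 183 (77.8 to 567) and 53.6 (35.9 to 83.6), where the differentiated-like values rest on 5 and 25 UMIs. All 3 genes were thus far lower in differentiated-like cells in both libraries. Proliferating-like cells were near basal-like ones for Jag2 (91.3 and 127 CPM) and Lfng (42.7 and 50.5 CPM). The filiform-like means were 42.5 and 43.9 CPM for Jag2, 17.1 and 16.7 CPM for Lfng and 31.1 and 14.4 CPM for Dll1, but most of these UMIs came from a Krt5-high part of cluster 15. Filiform-like cluster 9 stood at 3.05 and 2.96 CPM for Jag2 and 1.22 and 3.80 CPM for Lfng.

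In cells thinned to 10000 UMIs, basal-like cells had a Jag2 UMI in 65.0% (ZT0) and 71.0% (ZT12) of cases, against 2.75% and 4.51% in the differentiated-like class. Dll1 was detected in 18.4% and 17.9% against 0.485% and 0.805%, and Lfng in 28.3% and 26.5% against 0.323% and 0.161%. Thinning left out 15 and 38 basal-like and 52 and 71 differentiated-like cells. Unthinned, the basal-like shares were 88.7% and 85.5% for Jag2, 28.9% and 27.7% for Dll1 and 45.6% and 40.6% for Lfng, at median depths of 22641 and 18253 UMIs per cell. The differentiated-like shares were then 6.41% and 8.83% for Jag2, 1.34% and 2.05% for Dll1 and 0.596% and 1.52% for Lfng, at 35950 and 27822 UMIs. The 30 lymphocyte-like and Langerhans-like cells, with 396431 UMIs, give a view of the background from free RNA, at median depths from 7533 to 18031.5 UMIs per cell by class and library. They held 4 Jag2 UMIs (10.1 CPM), so the Jag2 level of differentiated-like cells did not exceed it. They held 0 Dll1 and 0 Notch3 UMIs, which allows up to 7.57 CPM, above the Notch3 level of basal-like cells and the Dll1 level of differentiated-like cells. They also held 17 Lfng and 17 Notch2 UMIs (42.9 CPM each), and so are no background for those genes. Notch1 had 13 UMIs (32.8 CPM) and Jag1 had 11 (27.7 CPM) in them, pooled levels below those of either gene in all 4 classes. All of these UMIs lay in the lymphocyte-like cells, since the 13 Langerhans-like cells held 0 of either gene. The lymphocyte-like level was thus above the pooled one, and the pooled values set no background for Notch1 or Jag1.

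Hes1, a repressor and the classic target of the pathway, was lower in basal-like than in differentiated-like cells. It stood at 80.4 (ZT0) and 127 CPM (ZT12) in basal-like cells, 120 and 105 CPM in proliferating-like cells, 161 and 223 CPM in differentiated-like cells and 185 and 200 CPM in filiform-like cells. The differentiated-like level was 2.00-fold (1.86 to 2.16) the basal-like one at ZT0 and 1.76-fold (1.67 to 1.85) at ZT12. The highest cluster was simple epithelial-like cluster 16, of 70 cells led by Ltf, Wfdc18 and Psca, at 338 CPM (309 to 368). Langerhans-like cells, 13 in all, held 0 Hes1 UMIs, which allows up to 12.8 CPM. The 30 lymphocyte-like and Langerhans-like cells together held 3 (7.57 CPM).

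Hey1, the other target, was sparse and unevenly placed. It stood at 17.6 CPM (14.4 to 21.2) in basal-like cluster 5, 16.0 CPM (12.3 to 20.4) in filiform-like cluster 9, 15.8 CPM (11.5 to 21.3) in differentiated-like cluster 11 and 14.6 CPM (9.14 to 22.1) in simple epithelial-like cluster 16. The next cluster, proliferating-like cluster 17, was at 5.92 CPM on 9 UMIs, and basal-like cluster 7 and differentiated-like cluster 12 held 0 UMIs. In both libraries the first 3 clusters were high: cluster 5 stood at 18.0 (ZT0) and 17.3 CPM (ZT12), cluster 9 at 14.7 and 16.9 CPM, and cluster 11 at 14.9 and 16.4 CPM. Clusters 5, 11 and 9 also stood above the median cluster for Jag1 (72.9 CPM), at 143, 145 and 116 CPM. Hey1 was thus split within 3 classes, and its class means of at most 11.4 CPM do not show where it was.

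**Figure D2:**
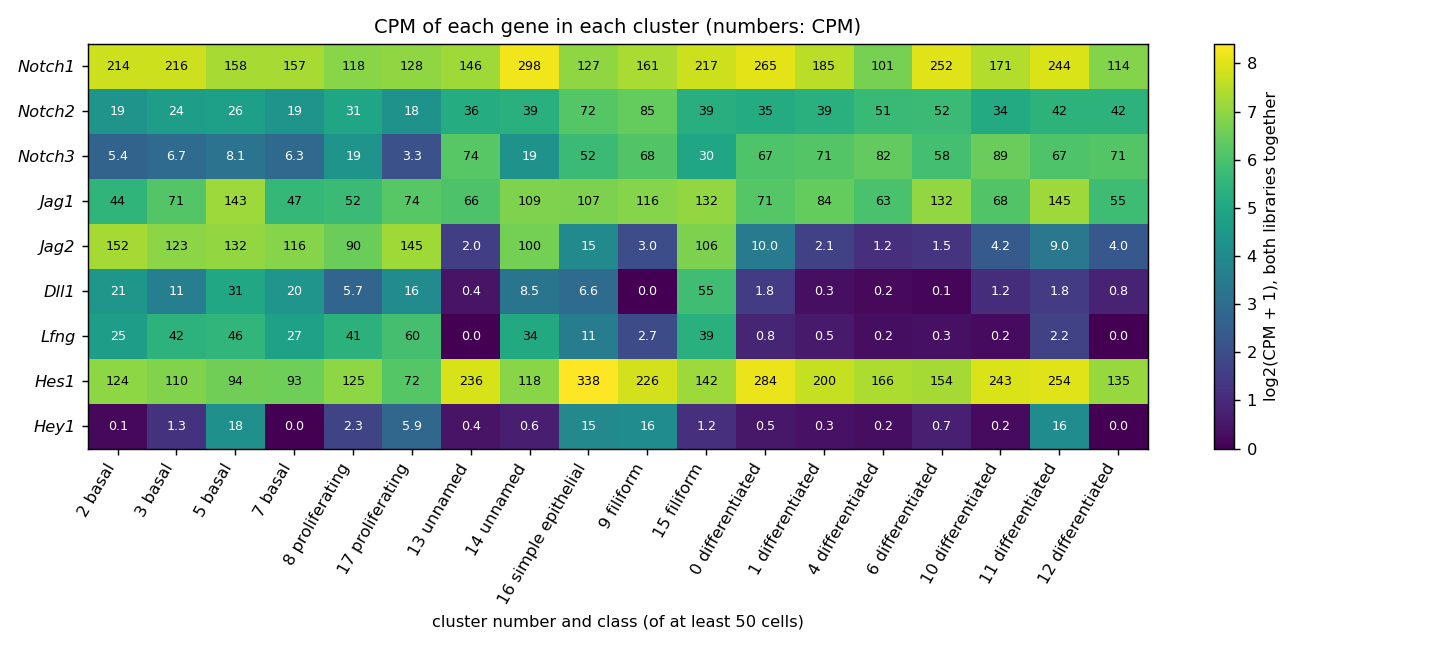
CPM of the 9 genes (rows) in the 18 clusters of at least 50 cells (columns, with cluster number and class), both libraries together, with colour on a log2(CPM + 1) scale. Jag2 and Lfng are high in the basal-like and proliferating-like columns and in clusters 14 and 15. Dll1 is highest in clusters 15 and 5 and low in proliferating-like cluster 8 (5.67 CPM). Notch3 is high in the differentiated-like columns and in filiform-like cluster 9, and Hey1 stands out in clusters 5, 16, 9 and 11.

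Cluster 15 joined different cells. In the main clustering it was filiform-like, with 42 cells at ZT0 and 66 at ZT12, and had the highest Dll1 level of any cluster, 55.2 CPM, while filiform-like cluster 9 held 0 Dll1 UMIs in 204 cells. A finer clustering (resolution 2.0) put 66 of its cells in fine cluster 27, 41 in fine cluster 29 and 1 elsewhere. Fine cluster 27 had the basal keratin Krt5 at 5432 CPM, the filiform keratin Krt36 at 7.24 CPM and Hoxc13, a homeobox gene of hair and filiform keratinocytes, at 345 CPM. Fine cluster 29 had Krt5 at 297 CPM, Krt36 at 21307 CPM, Krt84 at 11591 CPM and Hoxc13 at 682 CPM.

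The Notch genes differed between these 2 sets of cells. In fine cluster 27, Dll1 stood at 130 CPM (104 to 161) for ZT0 and 73.4 CPM (55.0 to 96.0) for ZT12, Jag2 at 170 and 213 CPM and Lfng at 69.7 and 72.0 CPM. In fine cluster 29, Dll1 had 1 UMI in each library, Jag2 stood at 3.99 and 5.95 CPM, and Lfng had 0 and 2 UMIs. Notch1 went the other way, at 22.7 CPM (12.7 to 37.5) and 101 CPM (79.2 to 127) in fine cluster 27 against 365 CPM (314 to 422) and 421 CPM (374 to 473) in fine cluster 29. Notch3 had 1 and 2 UMIs in fine cluster 27 and stood at 51.9 and 69.9 CPM in fine cluster 29. Hes1 stood at 33.4 and 107 CPM against 229 and 222 CPM, and Jag1 at 97.0 and 81.7 CPM against 188 and 179 CPM. The cells high in Dll1, Jag2 and Lfng were thus those lower in Notch1, Notch3, Hes1 and Jag1, within a class that carried 1 name. Fine cluster 27 held 112 of the 119 filiform-like Jag2 UMIs at ZT0 and 154 of 165 at ZT12, and 46 of 48 and 52 of 63 of those of Lfng, in 27 of 118 and 39 of 194 cells. The ZT0 values of fine cluster 27 rest on 27 cells and the others on 14 to 39.

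**Figure D3:**
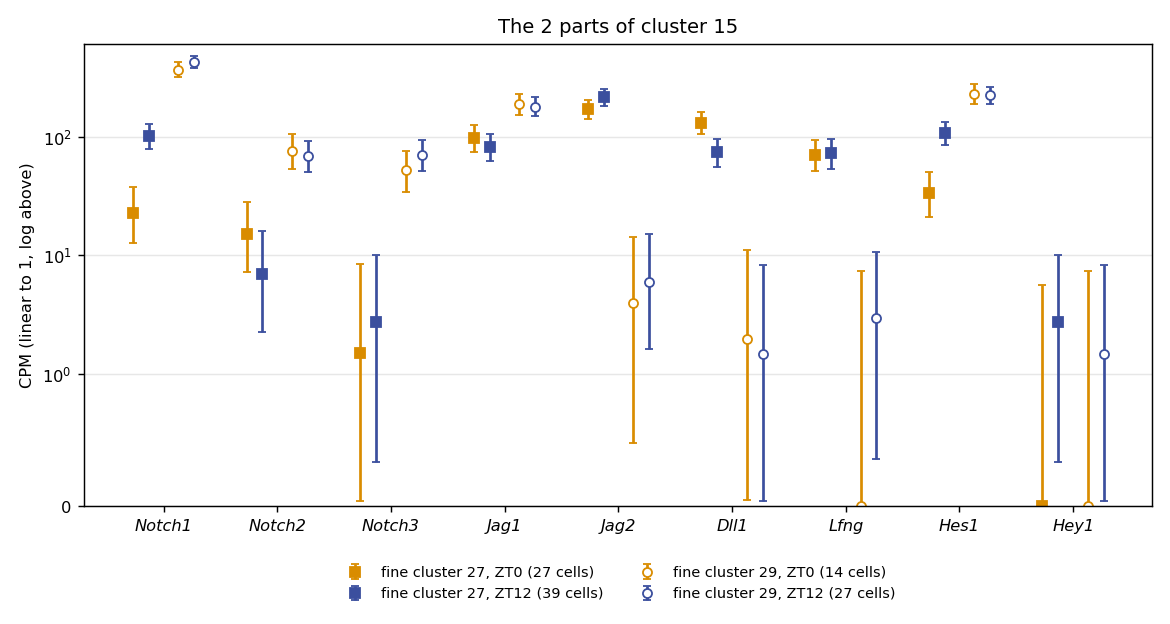
CPM with 95% counting intervals for the 9 genes in fine cluster 27 (filled squares) and fine cluster 29 (open circles), by library; the axis is linear up to 1 CPM and logarithmic above. Dll1, Jag2 and Lfng are high in fine cluster 27, and Notch1, Notch2, Notch3 and Hes1 in fine cluster 29, in both libraries.

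Within basal-like cells thinned to 10000 UMIs, those with a Dll1 UMI were set beside those without. Hes1 was detected in 38.8% of 85 Dll1-positive cells (28.4 to 50.01) and 44.2% of 378 Dll1-negative cells (39.1 to 49.3) at ZT0, and in 52.2% of 134 (43.4 to 60.9) and 53.1% of 614 (49.1 to 57.1) at ZT12. These intervals overlap. They cover counting error over the cells of 1 library only, and their overlap is no test of a difference. Within basal-like clusters the one case without overlap was cluster 3 at ZT0, where Hes1 was detected in 1 of 15 Dll1-positive cells, 6.67% (0.169 to 31.9), and in 55 of 122 Dll1-negative cells, 45.1% (36.1 to 54.3), a case picked out after its values were seen. At ZT12 the same cluster gave 9 of 22 and 94 of 176. Notch1 was detected in 57.6% and 66.4% at ZT0 and 67.2% and 75.1% at ZT12, lower in Dll1-positive cells in both libraries, again with overlapping intervals. Jag2 was detected in 68.2% and 64.3% at ZT0, and in 81.3% (73.7 to 87.5) and 68.7% (64.9 to 72.4) at ZT12. Split by Jag2 in place of Dll1, Notch1 was detected in 65.4% of Jag2-positive and 63.6% of Jag2-negative cells at ZT0, and in 70.8% (66.7 to 74.6) and 80.6% (74.8 to 85.7) at ZT12. Hes1 was detected in 42.9% and 43.8% at ZT0, and in 50.1% (45.8 to 54.4) and 59.9% (53.1 to 66.5) at ZT12. Notch1 and Jag2 UMIs occurred together in 42.5% (ZT0) and 50.3% (ZT12) of basal-like cells. With or without the other gene, Notch1 was detected in 64.8% and 73.7% and Jag2 in 65.0% and 71.0%. By the split above, Notch1 was about as frequent with as without Jag2 at ZT0, and less frequent with it at ZT12. The joint share was 1.94% and 3.70% in the differentiated-like class. Notch1 and Notch3 were both detected in 3.46% and 4.54% of basal-like cells and in 35.2% and 40.5% of differentiated-like cells.

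Across 30 points, each a cluster in 1 library with at least 25 cells, log2(CPM + 1) of Jag2 had a Pearson r of 0.948 with Lfng and 0.909 with Dll1, and Dll1 and Lfng had an r of 0.889. Notch3 had an r of -0.874 with Jag2 and 0.765 with Hes1. Hey1 had its highest r among the members with Jag1, 0.502. The points share 2 libraries and neighbouring cells, and these values are descriptions. Among 5807 genes of at least 20 CPM, the nearest to Notch3 were Zfp750, a transcription factor of epidermal differentiation (0.965), Rhov (0.957) and Sqle, an enzyme of sterol synthesis (0.952). The nearest to Jag2 were Wnt10a, a Wnt ligand (0.972), Ajuba (0.970) and Snai2, the transcription factor Slug (0.964). Among those nearest to Dll1 were Pdgfa, a growth factor (0.935), and Smo, a Hedgehog signal transducer (0.935). Lfng was nearest to Jag2 itself, then to Rbbp8 (0.940) and Cspg4 (0.931). Hes1 was nearest to Rhov (0.823), Mpp7 (0.810) and Ctnnd1 (0.809), and Hey1 to Skil (0.834), Krt17 (0.813) and Ctnnb1 (0.796). Notch2 was nearest to Cers3, a ceramide synthase (0.870), Atp6v0a1 (0.867) and Ablim1 (0.867), Jag1 to Slc30a1 (0.803), H13 (0.731) and Nrp2 (0.730), and Notch1 to Surf2 (0.777), Tomm20 (0.733) and Sltm (0.727).

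Between ZT0 and ZT12, Hes1, Notch2 and Dll1 differed by a rule of size in at least 1 class, and the other 6 genes in none. The rule of size used below asked for a mean of at least 5 CPM over both libraries, a difference of at least 1.5-fold in CPM + 1, either way, and a counting interval of the ratio that left out 1. In all cells 8 of the 9 genes had the mean CPM, 0 met the rule, and of 9541 genes 1.02% met it as higher at ZT12 and 4.83% as lower. In basal-like cells 1 of 8 was higher and 1 lower, beside 2.39% and 3.36% of all genes. In proliferating-like cells 1 of 8 was higher and 1 lower, beside 6.92% and 8.97%. In differentiated-like cells 0 of 5 met the rule, beside 1.41% and 2.08%. In filiform-like cells 0 of 9 were higher and 1 lower, beside 2.23% and 3.21%. The median log2 ratio of the members ranged from -0.06 in all cells to 0.24 in proliferating-like cells, and that of all genes from -0.03 to 0.03 over the same 5 groupings.

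The gene higher at ZT12 in basal-like cells was Hes1, from 80.4 to 127 CPM, 1.57-fold (1.45 to 1.71). It was 1.38-fold (1.33 to 1.44) in differentiated-like cells and 1.41-fold (1.37 to 1.45) in all cells, short of the rule, while proliferating-like and filiform-like cells gave 0.872 (0.746 to 1.02) and 1.08 (0.965 to 1.21). Clusters that held at least 25 cells of each library allow the libraries to be set side by side within a cluster. In these, Hes1 stood at 69.4 (ZT0) and 145 CPM (ZT12) in basal-like cluster 3 and 63.8 and 114 CPM in basal-like cluster 5. Differentiated-like clusters 0, 1 and 4 gave 258 and 291 CPM, 157 and 231 CPM, and 120 and 182 CPM. Differentiated-like clusters 11 and 6 gave 237 and 263 CPM, and 163 and 147 CPM. Unnamed cluster 14 gave 139 and 89.3 CPM. Clusters 3, 4 and 5 met the rule as higher at ZT12, and cluster 14 as lower. Over all 12 such clusters, Hes1 was higher at ZT12 in 9 and lower in 3, with a median ratio of 1.12. The direction was therefore not the same in every cluster. With the 9 genes allowed among those used for clustering, the basal-like log2 ratio was 0.53 in place of 0.65 and no longer met the rule.

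Hes1 was also high in a small group of cells rich in early-response genes, which code for transcription factors and feedback regulators induced within a short time of a stimulus. Fine cluster 28, of 43 cells led by Atf3, Nr4a1 and Socs3, had Hes1 at 432 (ZT0) and 290 CPM (ZT12). A list of 10 early-response genes (Fos, Fosb, Jun, Junb, Egr1, Atf3, Ier2, Nr4a1, Socs3, Dusp1), chosen after that cluster was seen, summed to 18817 and 18136 CPM there. In basal-like cells the list summed to 3567 (ZT0) and 3555 CPM (ZT12), and outside fine cluster 28 the basal-like Hes1 ratio was 1.56 (1.44 to 1.69). Leaving it out took away no basal-like cell at ZT0, where 478 remained, and left 776 of 786 at ZT12, so the ratio could move little. In all cells the list was at 3865 and 3261 CPM, in differentiated-like cells at 3433 and 3129 CPM, in filiform-like cells at 2393 and 2980 CPM, and in proliferating-like cells at 5871 and 2618 CPM. Its part in the proliferating-like and filiform-like ratios was not tested.

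Notch2 was the gene lower at ZT12 in both basal-like and proliferating-like cells. In basal-like cells it went from 28.3 to 17.8 CPM, 1.59-fold lower (1.34 to 1.88), and in proliferating-like cells from 32.3 to 15.2 CPM, 2.13-fold lower (1.45 to 3.23). Basal-like cluster 3 gave 32.2 and 17.7 CPM, cluster 5 gave 39.8 and 16.7 CPM, and proliferating-like cluster 8 gave 32.8 and 12.3 CPM. In 11 of the 12 clusters with at least 25 cells of each library the Notch2 ratio was below 1, with a median of 0.806. The differentiated-like ratio was 0.823 (0.763 to 0.888) and the filiform-like one 0.962 (0.793 to 1.17). The basal-like value lay close to the threshold, and 4 of 10 alternative settings put it on the other side.

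Notch1 was slightly higher at ZT12 in every class. Its ratio was 1.23 (1.16 to 1.31) in basal-like, 1.19 (1.04 to 1.37) in proliferating-like, 1.18 (1.13 to 1.22) in differentiated-like and 1.27 (1.13 to 1.43) in filiform-like cells, and was above 1 in 10 of 12 clusters. The lowest was 0.674 in cluster 14. In all classes it was short of the rule. Notch3, Jag1 and Jag2 did not meet it in any class either. The Jag2 ratio was 1.17 in basal-like and 1.39 in proliferating-like cells, with intervals that left out 1. It was 1.03 in filiform-like cells and 0.877 in all cells. In differentiated-like cells Jag2 (1.80), Dll1 (2.39) and Lfng (3.17) were higher at ZT12, but under the mean of 5 CPM. Within differentiated-like cluster 0, Jag2 stood at 4.27 and 11.8 CPM and met the rule. The lymphocyte-like and Langerhans-like cells held Jag2 at 10.1 CPM on 4 UMIs, so both values lay below or near that background. Of 8 clusters at the mean of 5 CPM, the Jag2 ratio was above 1 in 7 and below 1 in 1. In all cells Lfng went from 16.9 to 11.2 CPM, a ratio of 0.663 (0.6004 to 0.733), beside 0.927 (0.811 to 1.06) within basal-like and 1.18 (0.934 to 1.49) within proliferating-like cells. With the 4 classes weighted alike in both libraries the log2 ratio of Lfng was -0.01 in place of -0.55, and without clusters of which at least 90% of cells came from 1 library it was -0.68, which met the rule. The proliferating-like class was 12.4% of cells at ZT0 and 3.09% at ZT12.

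**Figure D4:**
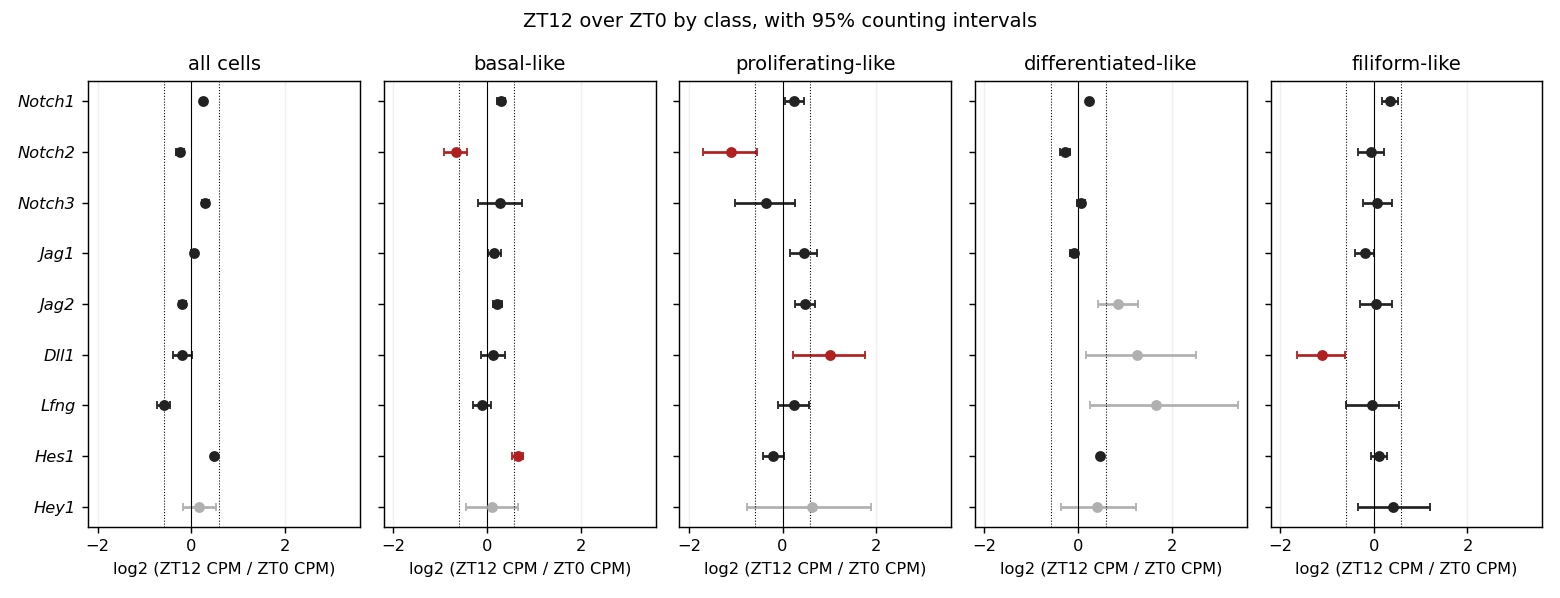
Log2 ratio of CPM at ZT12 over ZT0 for the 9 genes, by class and for all cells together, with 95% counting intervals; dotted lines mark a ratio of 1.5 in either direction, red marks genes that met the rule of size and grey those under the mean of 5 CPM. Hes1 in basal-like, Notch2 in basal-like and proliferating-like, and Dll1 in proliferating-like and filiform-like cells are red.

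Dll1 met the rule in opposite directions. In proliferating-like cells it went from 6.02 to 12.1 CPM, 2.01-fold (1.17 to 3.38), on 44 and 24 UMIs. Within cluster 8, which held most of those cells at ZT0, the values were 5.90 and 3.68 CPM, on 41 and 3 UMIs, and 21 of the 24 UMIs at ZT12 lay in cluster 17, led by the DNA replication genes Uhrf1, Ung and Rrm2. Cluster 17 stood at 8.43 CPM on 3 UMIs at ZT0 and 18.0 CPM at ZT12. In filiform-like cells Dll1 went from 31.1 to 14.4 CPM, 2.16-fold lower (1.52 to 3.10). Of the UMIs behind these values, 86 of 87 at ZT0 and 53 of 54 at ZT12 lay in the basal fine cluster 27, where Dll1 was 1.78-fold lower at ZT12 (1.247 to 2.55). In that fine cluster Notch1 was 4.44-fold (2.53 to 8.34) and Hes1 3.20-fold (1.97 to 5.39) higher at ZT12, values chosen after they were seen. In basal-like cells as a whole Dll1 stood at 19.4 and 21.2 CPM, a ratio of 1.09 (0.914 to 1.31). At resolution 2.0 the filiform-like class no longer held fine cluster 27, and Dll1, with a log2 ratio of -0.14 in place of -1.06, then did not meet the rule there.

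The other genes of the pathway were taken from a list of 45, grouped by role. Of these, 29 had a mean of 5 CPM in all cells, of which 1 was higher at ZT12 and 0 lower, beside 1.02% and 4.83% of all genes; their median log2 ratio was 0.02, beside -0.03 for all genes. The 1 gene was Dlk1, which codes for a Delta-like protein without the usual receptor-binding domain, at 12.1 (ZT0) and 24.3 CPM (ZT12), 2.01-fold (1.83 to 2.21). It was higher in basal-like (8.28 and 16.1 CPM) and differentiated-like (16.3 and 32.3 CPM) cells and lower in proliferating-like cells (12.9 and 3.03 CPM). Dlk1 was among the leading genes of differentiated-like cluster 0, which gave 87 cells at ZT0 and 354 at ZT12. The part of that mix in the Dlk1 difference was not tested. Dlk2, a relative of Dlk1, was higher in proliferating-like cells, at 13.0 and 26.8 CPM. Basal-like cells had 30 of the 45 genes at that mean, beside 2.39% of all genes higher and 3.36% lower, with 2 higher, Dlk1 and Hes6 (22.4 and 34.3 CPM), and 1 lower, Dtx2, a Deltex ubiquitin ligase (34.6 and 19.9 CPM). In proliferating-like cells, where 6.92% of all genes were higher and 8.97% lower, 29 had it, with 1 higher and 5 lower: Dlk1, Neurl1b, a ligase that acts on ligands (40.5 and 8.59 CPM), the protease Adam17 (35.3 and 22.2 CPM), Dtx2 (23.3 and 11.1 CPM) and Nrarp, an inhibitor that Notch itself induces (60.4 and 37.9 CPM). At ZT12 these 5 rest on 6 (Dlk1), 17 (Neurl1b), 44 (Adam17), 22 (Dtx2) and 75 (Nrarp) UMIs. Cluster 8 gave 186 and 32 cells of this class and cluster 17 gave 11 and 49, so different cells are compared. The part of that mix was not tested. Differentiated-like cells had 26 of the 45 genes at that mean, with Dlk1 alone higher and 0 lower, beside 1.41% and 2.08%. Filiform-like cells had 28, with Hes2 higher (2.86 and 8.77 CPM) and Maml1 lower (13.9 and 6.65 CPM), beside 2.23% and 3.21%.

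Of the remaining pathway genes, the gamma-secretase subunits Psenen (116 CPM at ZT0, 111 CPM at ZT12) and Aph1a (77.5 and 83.9 CPM) did not meet the rule in all cells. The same held for the nuclear genes Kdm5a (62.0 and 66.1 CPM) and Spen (53.7 and 51.1 CPM), the fringe relative Rfng (17.9 and 18.6 CPM) and Poglut1 (15.4 and 16.8 CPM), and for Mib1, the ligase that lets ligands signal (51.4 and 54.4 CPM). Its relative Mib2 stood at 4.59 and 3.64 CPM, with a mean under 5 CPM. Neurl1b stood at 6.25 and 0.685 CPM in all cells, also under that mean, Hes6 at 22.3 and 27.98 CPM, and Helt, another Hes-related gene, at 1.10 and 0.685 CPM. Of the Neurl1b UMIs, 296 of 308 at ZT0 and 17 of 46 at ZT12 lay in proliferating-like cells. That class was 12.4% of cells at ZT0 and 3.09% at ZT12, and its part in the Neurl1b difference was not tested. Fbxw7, which marks the cleaved receptor for destruction, stood at 38.5 and 34.9 CPM. RBPJ itself is coded by Rbpj, at 26.3 and 25.7 CPM. Nrarp followed the layers as Hes1 did, at 32.6 and 27.01 CPM in basal-like and 125 and 124 CPM in differentiated-like cells. Other receptors, ligands and targets were near 0: Notch4 stood at 0.284 and 0.223 CPM, Dll4 had 1 UMI in all, and Hes5 had 2.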

How the data were processed

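Per the file headers and labels, the deposited values were raw UMI counts per gene and cell barcode from 10x Genomics 3' v2 libraries. Cell Ranger 2.1.1 and mm10 are named in the submitters' processing notes, and the matrix headers name Cell Ranger 4.0.0. No source here names the annotation used for counting. The deposited matrices held 1726 and 2819 barcodes. Barcodes with at least 500 genes and under 10% mitochondrial counts were kept, and Scrublet removed 4 and 6. Cells were clustered with scanpy 1.11.5 (2000 variable genes without the 9 members, 30 components, 15 neighbours, Leiden resolution 1.0). Classes come from marker lists; the naming rule was chosen after the clusters were seen. Counts were summed per class and library and divided by their total (CPM). Poisson, Clopper-Pearson and conditional binomial 95% intervals were used, and a count of 0 was given a limit of 3 counts. With 1 library per time there is no test. The rule of size was checked on simulated counts that held counting error only. That check says nothing of variation between mice, libraries or mixes of clusters. edgeR 4.0.16 gave scaling factors for an alternative. Named genes were the members, pathway genes that met the rule of size, the 2 of highest CPM in each pathway group, and the 3 genes nearest each member by r, of which 1 is not reported here. Rbpj, Notch4, Dll4, Hes5 and the genes of fine clusters were named after their values were seen. Members and lists were chosen with earlier results of these data known.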

Additional observations from a re-analysis of the deposited data

Results flagged for a closer look

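Dll1 was higher at ZT12 in proliferating-like cells, with a log2 ratio of 0.90, and lower in filiform-like cells, with a log2 ratio of -1.06. The opposite directions drew attention to it. The difference was not tested, since each time has 1 library. Within proliferating-like cluster 8 Dll1 was not higher, at 5.90 (ZT0) and 3.68 CPM (ZT12). Of the filiform-like Dll1 UMIs, 86 of 87 at ZT0 and 53 of 54 at ZT12 lay in the Krt5-high fine cluster 27. At resolution 2.0, where the filiform-like class no longer held those cells, its log2 ratio was -0.14.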

How the results depend on the processing

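No paired analysis was possible because there was 1 library per time. Of 441 log2 ratios of the 9 genes recomputed under alternatives, 400 stayed within the main counting interval, and 0 of the called ones changed sign. Some of the 441 could not move, so these counts overstate how stable the ratios were. A minimum of 20 CPM does not alter a ratio. The all-cells ratios use the same cells at resolution 0.5, at resolution 2.0 and with members allowed among the variable genes. With the mean over cells, and with classes weighted alike, the size rule was applied without its counting interval. The number of members that met the size rule changed as follows. In all cells it was 0, and 1 (Lfng, lower) without clusters of which at least 90% came from 1 library. In basal-like cells it was 2, and 1 with members allowed among the variable genes, without the 5% highest doublet scores, with the mean over cells, and with a pseudocount of 5 CPM. The first of these left Notch2 and the other 3 left Hes1. At resolution 2.0 the number was also 2, but they were Hes1 and Notch3 (higher), without Notch2. In proliferating-like cells it was 2, and 4 with at least 1000 genes and under 5% mitochondrial counts and at resolution 2.0 (adding Notch3, lower, and Jag2, higher), but 1 with a minimum of 20 CPM. In filiform-like cells it was 1, then 2 under the stricter cell filter (adding Hey1, higher), and 0 at resolution 2.0 and without the 5% highest doublet scores. In differentiated-like cells it stayed at 0. The log2 ratio of Hes1 in basal-like cells ranged from 0.53 to 0.94, of Notch2 from -0.99 to -0.52, and of Dll1 in filiform-like cells from -1.21 to -0.14. At resolution 0.5 the proliferating-like and filiform-like classes could not be compared. Depth limits Dll1 and Hey1, whose class values rest on as few as 8 UMIs in proliferating-like cells at ZT12.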

Other observations

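Simple epithelial-like cluster 16 held 35 cells at each time, under the 50 needed for a comparison of classes. Jag1 stood at 38.3 CPM (26.3 to 53.7) there at ZT0 and 198 CPM (165 to 236) at ZT12, Notch1 at 99.7 and 164 CPM, Hey1 at 8.12 and 23.2 CPM, and Hes1 at 322 and 358 CPM. In unnamed cluster 14, led by Dcn, Jakmip2, Runx2 and Fbn2, with 65 and 57 cells, Notch1 stood at 346 CPM (319 to 374) at ZT0 and 233 CPM (208 to 260) at ZT12. The 12 clusters with at least 25 cells of each library were chosen by cell number alone, and these 2 were picked out after their values were seen.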
